A study of Homo sapiens with 4 samples.

Results

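HAS2 encodes hyaluronan synthase 2, a plasma membrane enzyme that builds the matrix polysaccharide hyaluronan from UDP-sugars, and the title of the series names it among the genes raised by Activin/Smad2 and Wnt/β-catenin signalling. Open chromatin at its locus is described here from every deposited peak that overlapped chr8:122525000-122754000 on hg19, the gene with about 100 kb on each side. That window held 12 of the 181268 peaks in the lists, and these merged into 6 of 87966 regions. All 6 are described, and none was picked out within the window by a measured value. The locus itself was chosen with earlier results of these data known.

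The assay was ATAC-seq, where a transposase cuts and tags accessible DNA with adapters for sequencing, and the cells were H1, an established line of human embryonic stem cells, grown on Matrigel without feeders. There were 4 libraries, 1 per group: control, Activin A at 25 ng/ml, Wnt3a at 25 ng/ml, and both ligands at 25 ng/ml each, the treatments lasting 6 h. Control cells stayed in a medium with N2, B27 and 20 ng/ml basic fibroblast growth factor. Treated cells were moved to a medium for which B27 but neither N2 nor that factor is listed, so that ligand and medium cannot be told apart in any comparison with control. No group was replicated, so groups were compared by description and without p-values. The peak lists hold no expression values, so the identity of the cells was not checked against marker genes, and no level of HAS2 RNA is given.

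Activin A is a TGF-β family ligand whose receptors phosphorylate SMAD2 and SMAD3, and Wnt3a stabilises β-catenin, which acts with TCF/LEF factors on DNA. Activity of both pathways drives pluripotent cells towards mesendoderm, the shared precursor of mesoderm and endoderm. Hyaluronan is abundant around migrating and transforming embryonic cells, and its receptor CD44 links it to the cell surface. An accessible region near a gene's start is often a promoter or another regulatory element, but ATAC-seq alone names neither its function nor the factors bound there.

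The gene lies on the minus strand at about chr8:122625271-122653630 (hg19), so its start site was taken as position 122653630, and upstream means higher coordinates. No exon, intron or UTR positions on hg19 were used here, so regions are placed only as inside the gene, upstream or downstream of it. By name and order in the RefSeq gene table of GRCh38.p14, the antisense RNA HAS2-AS1 overlaps HAS2, and the next protein-coding genes are SNTB1 on the downstream side and ZHX2 on the upstream side. A peak near the start site therefore cannot be given to HAS2 rather than to HAS2-AS1.

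The whole lists differed in length, at 26223 peaks for control, 75585 for Activin A, 21078 for Wnt3a and 58382 for both ligands, and the depth behind them is not known. Each peak carries the authors' score, which appears from its values to be 10 times the negative log10 of a p-value within 1 library. Scores ran from just above 50 (50.03, 50.05, 51.09 and 50.03 at the lowest, in the same order) to 3100 or more. Because such a score grows with depth, peaks are placed by their score percentile, the percent of peaks in the same list with a lower score plus 50% of those with an equal score.

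Open chromatin at HAS2 lay mainly in a pair of regions flanking the start site. The first was inside the gene, 566 to 2379 bases from the start site, and had a peak in all 4 lists. The second began 5 bases upstream of the start site and extended to 1549 bases upstream. It had a peak in each of the 3 treated lists and none in control. The other 4 regions lay farther from the start site, with percentiles between 8.80 and 31.3 over whole lists. They were a distal upstream region found in control and after Activin A, and 3 downstream regions each found in 1 list. No peak covered position 122653630 itself in any list.

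**Figure D1:**
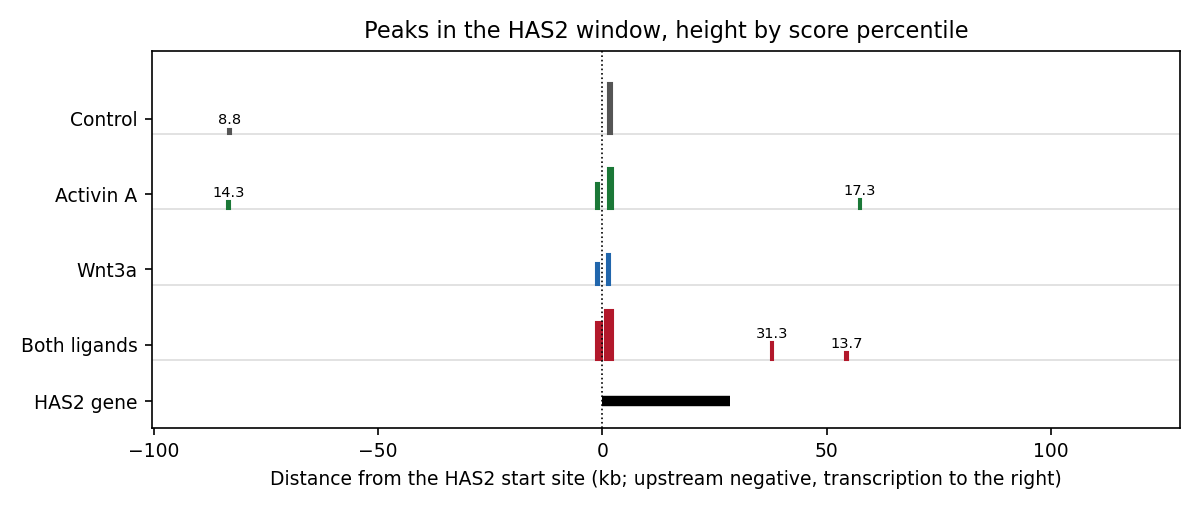
Peaks of each list in the window, drawn to scale by distance from the HAS2 start site in kb, with height by score percentile within the list (printed above the peaks away from the start site). The tall peaks cluster at the start site in every list, and the distant ones have percentiles between 8.80 and 31.3.

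The region inside HAS2 held the highest-ranking peak of the window in each of the 4 lists. In control the peak spanned chr8:122651495-122652426, 932 bases wide, with a score of 184.61 at percentile 90.5. After Activin A it spanned chr8:122651251-122652421, 1171 bases, with a score of 201.97 at percentile 73.2. After Wnt3a it spanned chr8:122651971-122652669, 699 bases, with a score of 88.95 at percentile 53.5. With both ligands it spanned chr8:122651361-122653064, 1704 bases, with a score of 295.82 at percentile 87.5. The peak was thus narrowest and lowest in rank after Wnt3a, widest with both ligands, and highest in rank in control. All 4 peaks shared a core of 451 bases, from 122651971 to 122652421, within a union of 1814 bases.

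The end of this region that faces the start site moved between lists. The control peak ended 1204 bases inside the gene and the Activin A peak 1209 bases inside, a difference of 5 bases. After Wnt3a the near end lay 961 bases inside, and with both ligands 566 bases inside. Relative to control and to Activin A, the extra width with both ligands lay mostly on the side of the start site. At the far end, the Wnt3a peak lay 476 bases closer to the start site than the control peak, and it covered 48.9% of the control peak.

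Each treated list ranked the region inside HAS2 below its place in control. The difference from the control percentile was -17.4 points after Activin A, -37.1 after Wnt3a and -3.00 with both ligands. The same differences over the 13016 regions with a peak in all 4 lists had medians of 15.4, -2.78 and 11.9. For Activin A, 98.98% of those regions had a larger (more positive) difference than the HAS2 region. The shares were 87.4% for Wnt3a and 90.3% for both ligands. From its control percentile the HAS2 region could rise by at most 9.47 points, so those medians and shares depend partly on where it started. Against the 519 regions within 1 percentile point of it in control, its Activin A percentile of 73.2 compared with a median of 95.7, and 98.8% of those with an Activin A peak ranked higher. The medians were 82.2 for Wnt3a and 94.5 for both ligands, where 85.6% and 84.9% ranked higher. The 3 comparisons use the same control library, so they are not independent.

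Setting each peak against others of similar width, within 25% of its own, kept control highest. The region inside HAS2 was then at percentile 89.6 for control, 38.3 for Activin A, 58.4 for Wnt3a and 40.3 for both ligands. The wide peaks of the Activin A and combined lists thus ranked below the middle for their width. On this scale, 98.7% of shared regions had a larger Activin A minus control difference, as did 97.99% for both ligands minus control and 82.8% for Wnt3a minus control. Cutting every list to its 21078 best peaks left the region in all 4 lists, at percentile 88.2 for control, 3.77 for Activin A, 53.5 for Wnt3a and 65.5 for both ligands. The lowest score kept in the Activin A list was then 195.09, close to the 201.97 of the HAS2 peak.

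Both ligands together gave a higher rank than Activin A alone inside HAS2. The percentile was 14.4 points higher with both ligands than with Activin A, where the median over shared regions was -1.84, and 3.23% of shared regions had a larger difference. Of the 1329 combined regions within 1 point of it in the Activin A list, 1.96% ranked higher with both ligands. Among peaks of similar width the difference shrank to 1.98 points, with 37.1% of shared regions larger, and in lists of equal length it was 61.7. The peak was also wider, at 1.46 times the Activin A width against a median ratio of 1.01, and 10.05% of shared regions had a larger ratio. The combined peak was thus both wider and higher in rank, while its rank for its width was close to that of the Activin A peak.

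The order of the Wnt3a list against the other treatments depended on the scale. Both ligands minus Wnt3a was 34.1 points over whole lists, 11.99 in lists of equal length and -18.1 among peaks of similar width. Activin A minus Wnt3a was 19.7 points over whole lists, -49.7 at equal length and -20.1 among peaks of similar width. Of the shared regions, 28.2% and 52.1% had a larger difference over whole lists, in that order, and 86.4% and 90.9% among peaks of similar width.

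**Figure D2:**
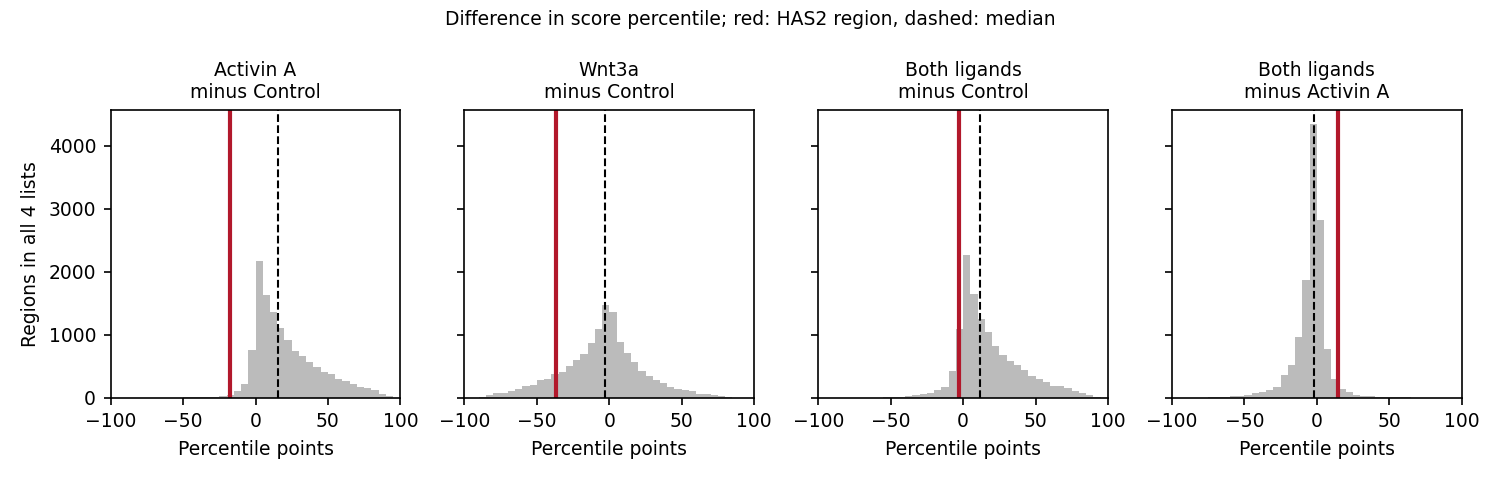
Histograms of the difference in score percentile, in percentile points, over the 13016 regions with a peak in all 4 lists, for 4 pairs of lists; the red line is the region inside HAS2 and the dashed line the median. The HAS2 region lies at -17.4 against a median of 15.4 for Activin A minus control, where its own largest possible value is 9.47, and at 14.4 against -1.84 for both ligands minus Activin A.

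The upstream region was present in the 3 treated lists and absent from control. After Activin A its peak spanned chr8:122654430-122655179, 750 bases wide and 800 bases upstream at the near end, with a score of 101.27 at percentile 46.4. After Wnt3a it spanned chr8:122654465-122654967, 503 bases wide and 835 bases upstream, with a score of 75.94 at percentile 38.7. With both ligands it spanned chr8:122653635-122655093, 1459 bases wide and 5 bases upstream, with a score of 138.04 at percentile 66.6. The whole Wnt3a peak lay within the peaks of the other treated lists, so that it formed the common core of 503 bases. The combined peak was 1.95 times as wide as the Activin A peak and 2.90 times as wide as the Wnt3a peak, most of the added bases lying towards the start site.

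Absence from control was common among regions of this rank. Of all Activin A regions, 70% had no control peak, against 2 of the 4 in the HAS2 window. For Wnt3a the share was 33.1% over the list and 1 of 2 in the window, and for both ligands 62.5% and 3 of 4. Within the class of 10 percentile points that holds the upstream region, 88.8% of Activin A regions had no control peak (95% exact interval 88.1 to 89.5), 45.7% of Wnt3a regions (43.4 to 48.0) and 59.7% of combined regions (58.4 to 60.9). These intervals cover counting error only. Presence in all 3 treated lists without control was the pattern of 4613 of 87966 regions (5.24%). These made up 9.01% of the Activin A regions without a control peak, 70.5% of such Wnt3a regions and 13.2% of such combined regions. Of these 4613 regions, 199 (4.31%, 3.75 to 4.94) lay within 1000 bases of a region found in all 4 lists. The HAS2 upstream region did so, with 570 bases between the merged regions of the pair. No such share is given for regions of other patterns, so whether the arrangement is particular to this pattern cannot be read from it.

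**Figure D3:**
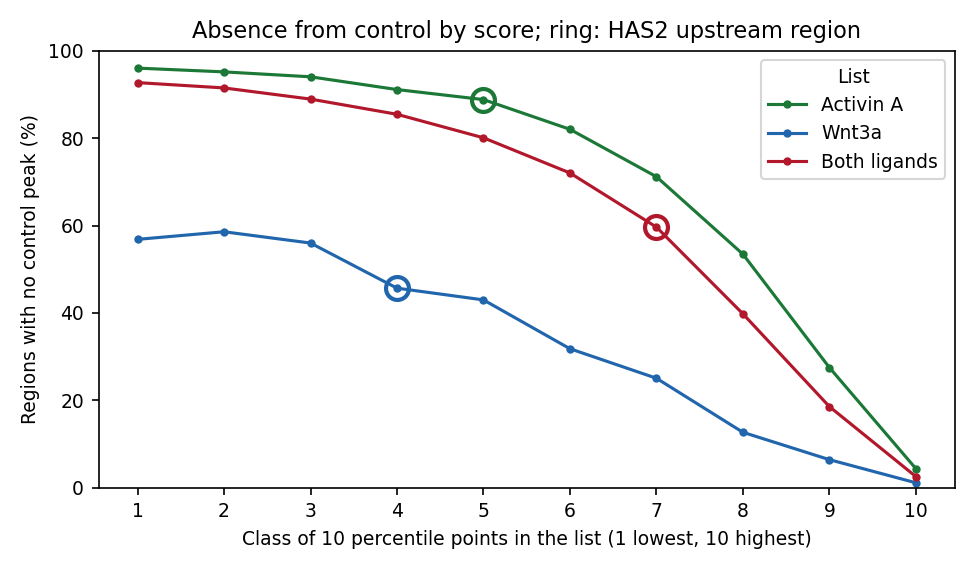
Percent of regions in each treated list that had no control peak (vertical axis) by class of 10 percentile points in score (horizontal axis, class 10 highest); rings mark the class that holds the HAS2 upstream region. The rings sit at 88.8% for Activin A, 45.7% for Wnt3a and 59.7% for both ligands.

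The combined list ranked the upstream region highest over whole lists, but not for its width. Both ligands minus Activin A was 20.2 percentile points, both ligands minus Wnt3a 27.9 and Activin A minus Wnt3a 7.69. Among peaks of similar width the percentiles were 53.4 after Activin A, 66.8 after Wnt3a and 6.55 with both ligands, which reversed the sign of all 3 differences, to -46.8, -60.2 and -13.4 points in the same order. The combined upstream peak was therefore broad with a low score for its breadth. In lists of equal length the Activin A peak dropped out, while the Wnt3a peak stayed at percentile 38.7 and the combined peak at 7.55. Among the 4613 regions of the same presence pattern, the HAS2 upstream region was at position 15.9% in Activin A percentile (median 70.5), 54.2% in Wnt3a (median 35.8) and 57.8% in both ligands (median 62.4). Within that set it was low after Activin A and near the middle in the other lists.

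**Figure D4:**
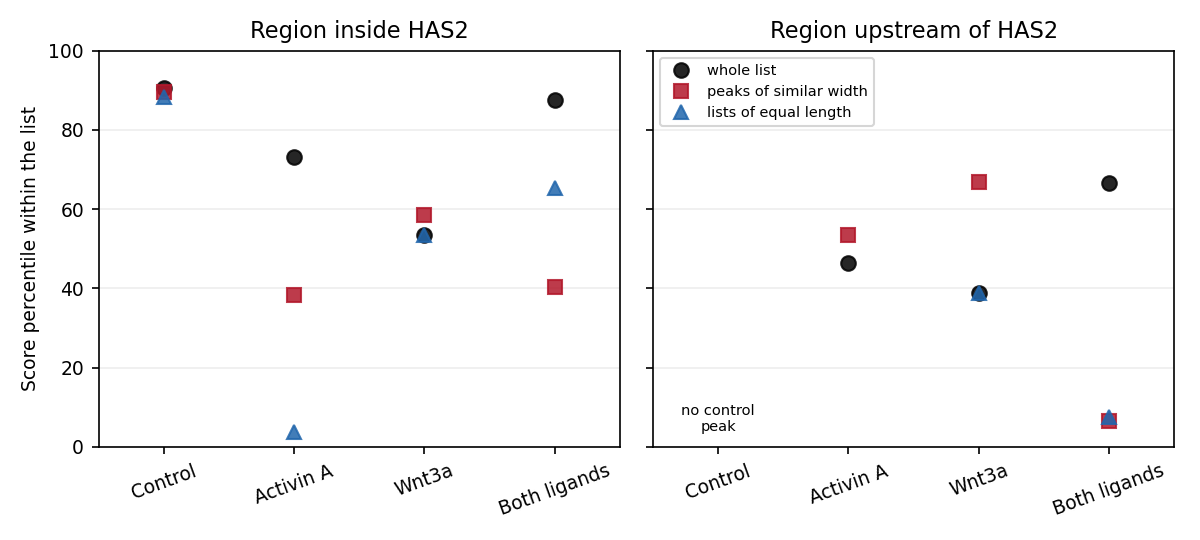
Score percentile (vertical axis) of the regions inside and upstream of HAS2 in each list, with 1 library per point, over whole lists, among peaks of similar width and in lists of equal length. Inside the gene control is highest on all 3 scales (88.2 to 90.5), whereas for the upstream region the combined list goes from 66.6 over the whole list to 6.55 among peaks of similar width.

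As a pair, the start-site regions covered the most bases with both ligands. Peaks within 2500 bases of the start site covered 932 bases for control, 1921 for Activin A, 1202 for Wnt3a and 3163 for both ligands. The combined list thus covered 3.39 times the control bases at the start site, against 2.55 times over the whole list. For Activin A the ratios were 2.06 and 3.08, and for Wnt3a 1.29 and 0.737. Both ligands against Activin A gave 1.65 at the start site and 0.827 over the whole list. Within 2500 bases control had 1 peak and each treated list 2, and the spread of such ratios over other loci is not given. Over the whole window the ratios to control were 2.90 for both ligands, 2.06 for Activin A and 0.799 for Wnt3a. Wnt3a thus covered more bases than control near the start site but fewer over the window. Both ligands against Activin A gave 1.41 over the window. At this locus the combined list covered more than the Activin A list, although it was the shorter list and covered fewer bases genome-wide.

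The gap between the members of the pair was shortest with both ligands. It measured 2008 bases after Activin A, 1795 after Wnt3a and 570 with both ligands. In control there was no second peak, and no gap is given. Counting only the 1000 bases on either side of the start site, control had no peak, Activin A had the upstream peak, and the Wnt3a and combined lists had both. The near end of the Activin A peak inside the gene was 209 bases outside that limit and that of control 204 bases outside.

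**Figure D5:**
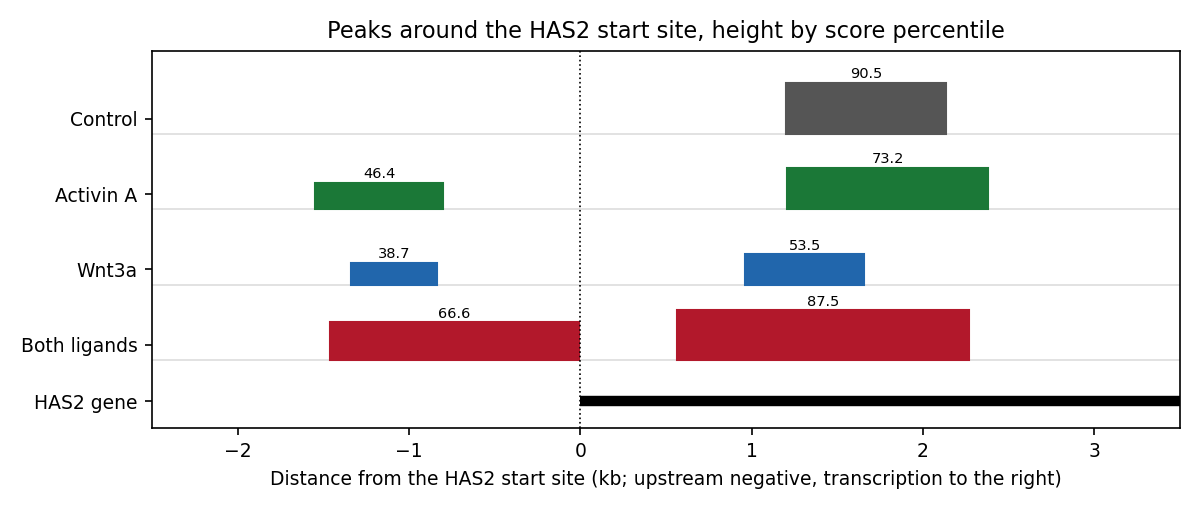
Peaks of each list around the HAS2 start site, to scale by distance in kb, with height by score percentile within the list (printed above each). Control has a single peak inside the gene at percentile 90.5, and the combined list has the widest peaks on both sides, ending 566 bases inside and 5 bases upstream of the start site.

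The distal upstream region, at chr8:122736496-122737264 and 82866 bases upstream at its near end, was weak. In control its peak was 572 bases wide with a score of 52.23 at percentile 8.80, close to the lowest score of that list. After Activin A it was 751 bases wide with a score of 62.83 at percentile 14.3, a difference of 5.51 points. It had no peak after Wnt3a or with both ligands, the only control region of the window lost in any list. Over all control regions, 11.5% had no Activin A peak, 46.5% no Wnt3a peak and 15.2% no combined peak, and the window counts were 0 of 2, 1 of 2 and 1 of 2. In the lowest class of 10 percentile points of control regions these shares were 32.5%, 76.4% and 39.1%. Regions of that class with an Activin A peak had a median Activin A percentile of 66.5. Among them the distal region was low, at position 5.41%. Presence in control and Activin A alone was the pattern of 1335 regions (1.52%).

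The 3 downstream regions lay beyond the 3′ end of the gene, each in 1 list. The Activin A region at chr8:122596041-122596471 was 28800 bases past that end and 431 bases wide, with a score of 65.01 at percentile 17.3. The first combined region, at chr8:122598945-122599568, was 25703 bases past it and 624 bases wide, with a score of 56.98 at percentile 13.7. The second combined region, at chr8:122615529-122616103, was 9168 bases past it and 575 bases wide, with a score of 69.52 at percentile 31.3. Such single-list regions were frequent, at 26500 of all regions for Activin A (30.1%) and 10890 for both ligands (12.4%). None of the 3 was in the equal-length lists. Among peaks of similar width they stood at percentile 26.1, 26.5 and 61.4, in the order given. On that scale the second combined region was above the combined peaks inside HAS2 (40.3) and just upstream (6.55).

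Between the treated lists, combined regions without an Activin A peak were 2 of 4 in the window, both downstream, against 21% of all combined regions. Activin A regions without a combined peak were 2 of 4, against 39.4%. For both ligands against Wnt3a the counts were 2 of 4 (67.9% over the list) and, in reverse, 0 of 2 (9.27%). For Activin A against Wnt3a they were 2 of 4 (74.6%) and 0 of 2 (6.02%). With 2 or 4 regions in a list, none of these counts can be set apart from its background. Every Wnt3a region of the window was also in both other treated lists.

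The window was about average in peak number. It held 2, 4, 2 and 4 peaks in the control, Activin A, Wnt3a and combined lists, against medians of 1, 5, 1 and 4 over 11420 windows of the same length with a peak in any list. These numbers stood at percentile 59.8, 44.7, 65.9 and 53.8 of those windows. Outside the window, the nearest peaks on the downstream side were 457 kb from the gene for control, 236 kb for Activin A, 656 kb for Wnt3a and 264 kb for both ligands. On the upstream side they were 825, 486, 162 and 203 kb from the start site in the same order.

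The regions elsewhere most like the upstream one, by the distance between their percentiles in the 3 treated lists, were chr5:102681745-102682672, chrX:151809549-151811227 and chr9:127161294-127162531. Their distances were 4.03, 4.41 and 5.24 percentile points, out of 4397 regions of the same presence pattern outside chromosome 8. For the region inside the gene, over 4 lists and 12533 regions, the nearest was chr5:180600195-180601981 at 5.15 points. That region had percentiles of 91.1 for control, 76.9 for Activin A, 50.4 for Wnt3a and 89.1 for both ligands. No gene was assigned to these regions, since hg19 gene positions were not used here.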

How the data were processed

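ATAC-seq peak lists of 4 H1 libraries were analysed, 1 per group, with groups taken from the labels. Each deposited list gives the position of every peak, a MACS-style name and the score written by the authors' caller. CASAVA 1.8, Bowtie2 2.2.2 and the build hg19 are named, per the submitters' processing notes. For caller settings, duplicate removal, read shifting and depth the sources used here give nothing, and each could change which weak peaks are listed and how wide they are.

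Peaks overlapping by at least 1 base or book-ended were merged over the 4 lists, and a region was present in a list that had a peak in it. Coordinates are hg19, counted from 1. The positions of HAS2 were those given with the choice of the locus and were not checked against an hg19 annotation. Lists of genes of hyaluronan metabolism and of cell type markers could not be placed on hg19 and were not analysed here. Percentiles use the best peak of a list in a region. Classes of 10 percentile points are those of each list. Where an interval follows a share, it is the exact (Clopper-Pearson) 95% interval, and other shares are given without one. Merging and comparison were run on simulated data. From the control list of 26223 peaks, 5000 were taken out and 200 added elsewhere. The steps returned 5000 lost and 200 gained regions. The kept peaks were unchanged and the added ones lay past the last peak of a chromosome. Partly overlapping peaks, as at HAS2, were thus not tested. Python 3.11.15 with numpy 2.4.6, pandas 2.3.3, scipy 1.17.1 and matplotlib 3.10.9 was used.

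The locus and the measures were chosen with earlier results of these data known. All regions of the window were named, together with the 3 regions outside chromosome 8 nearest in percentile to the start-site region. The same search for the region inside the gene, similar-width percentiles over all shared regions, and the comparison with regions of nearly the same rank were added after the data were seen.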

Additional observations from a re-analysis of the deposited data

Results flagged for a closer look

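The width of the peak inside HAS2 moved in opposite directions between treatments. It was 239 bases wider than control after Activin A and 772 bases wider with both ligands, whereas after Wnt3a the width fell by 233 bases (-233). With 1 library per group this difference was not tested. Over the 13016 regions found in all 4 lists the median width ratios to control went the same ways, at 1.40 after Activin A, 1.43 with both ligands and 0.885 after Wnt3a. The HAS2 ratios were 1.26, 1.83 and 0.750, and 63.2%, 24.5% and 68.7% of those regions had a larger ratio.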

How the results depend on the processing

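Depth is unknown for all 4 libraries, and peaks weaker than each caller threshold are not in the lists, so absence of a peak is not absence of accessibility. Of the alternative values, 85 stayed, 79 moved and 7 changed sign; counts were taken as moved beyond 1.5 times and percentiles beyond a 95% counting interval, which is narrow in lists this long. Counting ties in full, shifting the windows by 100 kb and merging peaks within 500 bases moved nothing by this rule. The same held for taking absence as no peak within 1000 bases, for peak centres and for 250 kb flanks. With 250 kb flanks the window still held 2 control peaks, but 5 after Activin A, 3 after Wnt3a and 5 with both ligands. On every scale run, the region inside HAS2 ranked highest in control and higher with both ligands than with Activin A. The scales rank the same 4 peaks and are not independent. Among peaks of similar width, both ligands exceeded Activin A by only 1.98 points. The cause of each change below was not tested beyond what the construction (fewer peaks or a smaller window) gives. No paired analysis was possible because no group had a second library.

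With percentiles over chromosome 8 only, the region inside HAS2 stood at 92.1 for control, 75.99 for Activin A, 56.2 for Wnt3a and 89.0 for both ligands, and the upstream region at 49.1, 40.8 and 69.8 in the 3 treated lists. Differences inside the gene were then -16.1 (Activin A minus control), -35.9 (Wnt3a minus control), 13.0 (both minus Activin A) and 32.8 (both minus Wnt3a), and upstream 28.97 (both minus Wnt3a). Among peaks of similar width the percentiles inside the gene were 89.6, 38.3, 58.4 and 40.3 and upstream 53.4, 66.8 and 6.55. The differences from control inside the gene were -51.3, -31.2 and -49.3, both minus Activin A was 1.98, and the sign changed for both minus Wnt3a (-18.1) and Activin A minus Wnt3a (-20.1). Upstream all 3 changed sign, to -46.8 (both minus Activin A), -60.2 (both minus Wnt3a) and -13.4 (Activin A minus Wnt3a).

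In lists of equal length the percentiles inside the gene were 88.2 in control, 3.77 after Activin A and 65.5 with both ligands, and upstream 7.55 with both. The differences from control were -84.4, -34.7 and -22.8, both minus Activin A was 61.7, both minus Wnt3a 11.99 inside and -31.2 upstream, and Activin A minus Wnt3a -49.7, the last 2 with changed sign. The window then held 1 peak in control, 1 after Activin A and 2 with both ligands, standing with the 2 of Wnt3a at percentile 33.3, 33.4, 57.07 and 56.9 of same-length windows. Regions without a control peak numbered 0 after Activin A and 1 with both ligands, control regions lost after Wnt3a or both 0, combined regions without Activin A 1 and without Wnt3a 0, Activin A regions without both or without Wnt3a 0, and Wnt3a regions without Activin A 1. In the top 50% of scores the control, Activin A and Wnt3a lists held 1 peak each and the combined list 2. Regions without control then numbered 0, 0 and 1, control regions lost after Wnt3a or both 0, combined regions without Activin A 1 and without Wnt3a 1, and Activin A regions without both or without Wnt3a 0. Requiring overlap of 50% of each peak gave 2 Wnt3a regions without control and 2 the other way. It gave 4 combined regions without Wnt3a and 2 the other way, and 1 Wnt3a region without Activin A. Combined regions without Activin A, Activin A regions without both and Activin A regions without Wnt3a then numbered 3 each. Upstream, 45.5% of the combined peak overlapped the Activin A peak and 34.5% the Wnt3a peak, so under this rule the combined peak matched neither. With 10 kb flanks the window held 1 control and 2 Activin A peaks, and with 50 kb flanks 1 control peak. A peak covering the start site itself was found in 0 lists, against 3 with a peak within 1000 bases and 4 within 2500 bases.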
